A study of Homo sapiens with 24 samples.

Results

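The genes of the cytosolic ribosomal proteins were followed through 6 maps of RNA contacts made by eCLIP in HEK293, a human embryonic kidney cell line. Members were chosen by symbol: the numbered RPL and RPS genes, with RPLP0, RPLP1, RPLP2, RPSA, FAU, RPL36AL and RACK1. They numbered 81 of the 9792 genes with an enriched window in any map, 47 for proteins of the large (60S) subunit and 34 for the small (40S) subunit. In eCLIP a protein is crosslinked to RNA and immunoprecipitated (IP), and its reads are set against a size-matched input library. The 24 libraries make up 6 experiments of 2 IP and 2 input libraries. SNRNP200, the spliceosomal helicase that unwinds the U4 and U6 RNAs, was mapped in whole cells with 500 µM arsenic and in untreated whole cells, and in the cytoplasmic fraction with 500 µM arsenic and untreated. CAPRIN and G3BP1, partner proteins of stress granules, were mapped in untreated cells, and the label of CAPRIN does not give the family member. The protocol gives 1 and the same antibody number for all 3 proteins, so which antibody was used for each cannot be read from it. Whether the replicates came from separate cultures is not in the labels, and p-values measure only the spread between these samples.

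Ribosomal proteins are made in matched amounts from some of the most abundant mRNAs of a growing cell. Most of these mRNAs begin with a terminal oligopyrimidine (TOP) tract, a C followed by a run of C and T, through which their translation is held back when mTOR signalling is low or the cell is stressed. Their genes are short and rich in introns, many introns hold a small nucleolar RNA (snoRNA), and mutations in several, such as RPS19, RPL5, RPL11 and RPL35A, cause Diamond-Blackfan anaemia.

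The starts of 8 genes are shown as examples. Each stretch overlaps a 5′ UTR window of the gene in the cytoplasm with arsenic. All but those of RPL35A and RPL24 overlap one for CAPRIN. Each stretch holds 10 bases before the RefSeq start and 20 from it on (GRCh38.p14), read 5′ to 3′ on the coding strand, with the pyrimidine tract in capitals. They lie at chr4:108620566-108620595 (plus strand) for RPL34, chr5:181243887-181243916 (minus strand) for RACK1, chr3:197950180-197950209 (plus strand) for RPL35A and chr15:66504836-66504865 (minus strand) for RPL4. RPL24 lies at chr3:101686699-101686728 (minus strand), RPLP1 at chr15:69452808-69452837 (plus strand), RPS12 at chr6:132814559-132814588 (plus strand) and RPL12 at chr9:127451387-127451416 (minus strand).
RPL34: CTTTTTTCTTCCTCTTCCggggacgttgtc
RACK1: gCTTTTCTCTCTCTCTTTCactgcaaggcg
RPL35A: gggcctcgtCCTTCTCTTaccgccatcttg
RPL4: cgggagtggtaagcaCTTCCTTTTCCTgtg
RPL24: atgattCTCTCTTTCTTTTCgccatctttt
RPLP1: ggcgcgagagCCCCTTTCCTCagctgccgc
RPS12: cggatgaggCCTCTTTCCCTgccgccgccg
RPL12: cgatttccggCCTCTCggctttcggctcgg
A tract was counted when a C followed by at least 4 bases C or T began within 10 bases of a start, on the coding strand only. It stood at 60 of the 66 members with a start in the table (90.9%), against 38.4% of 27305 genes. The share was 8 of 9 for other TOP mRNAs, such as those of elongation factors, and 25 of 74 for mitochondrial ribosomal proteins. RPL17, RPL27, RPL6, RPS27L, RPS29 and RPS4X had a start with no such tract in this window. A match is a description of letters and not of a factor's site.

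For each experiment the authors deposited enriched windows of up to 100 bases (hg38), with IP and input reads summed over both replicates. The lists give no library totals, and the depth of each library is unknown. Each list was normalised separately by the authors, and the input reads that a window needed per IP read for a listed log2 enrichment of 0 were 8.17 in the cytoplasm with arsenic and 1.06 without, 1.57 and 1.68 in whole cells with and without arsenic, 2.03 for CAPRIN and 3.08 for G3BP1. A difference in log2 enrichment between lists therefore includes the difference of these baselines.

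The input counts of the 2 arsenic lists of SNRNP200 were nearly the same numbers. Of 664 windows shared by the cytoplasmic and the whole cell arsenic lists with at least 10 input reads in both, 559 (84.2%) had equal input counts and 630 (94.9%) were within 1 read. In the windows of members, 62 of 75 (82.7%) were within 1 read. In no other pair of lists did the share within 1 read pass 23.2%, and IP counts of the 2 arsenic lists were within 1 read in 0.904% of the windows. Summed over windows shared by both whole cell lists, the input of the arsenic list held 0.835 times the untreated reads in introns and 0.884 times in coding sequence. In windows of members these ratios were 0.719 and 0.956. Although the labels name a separate input for each fraction, the deposited counts of cytoplasm and whole cells with arsenic cannot be told apart as input, and every value of the cytoplasmic arsenic list below rests on that input.

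Nearly every ribosomal protein gene was found by SNRNP200 in whole cells, and most were found in the cytoplasm with arsenic and by CAPRIN. Listed with at least 1 window were 80 of 81 members in whole cells with arsenic, against 83.8% of all 9792 genes, and 81 of 81 in untreated whole cells, against 92.4%. In the cytoplasmic fraction 72 members (88.9%) were listed with arsenic, where all genes stood at 25.2%, and 23 (28.4%) without, where they stood at 18.6%. CAPRIN listed 71 members (87.7%, all genes 44.6%) and G3BP1 listed 46 (56.8%, all genes 12.6%). At q under 0.05 the cytoplasmic lists held 38 members with arsenic and 3 without, and with at least 2 windows the untreated one held 4. Over all genes, 1364 were in the arsenic list only, 710 in the untreated list only and 1108 in both. At q under 0.05 these counts were 635, 169 and 102, and with at least 2 windows 894, 384 and 465. G3BP1 entries come in 2 sets, and the set with up to 2 replicates alone held 21 members. The count of all genes in that set is not given here.

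**Figure D1:**
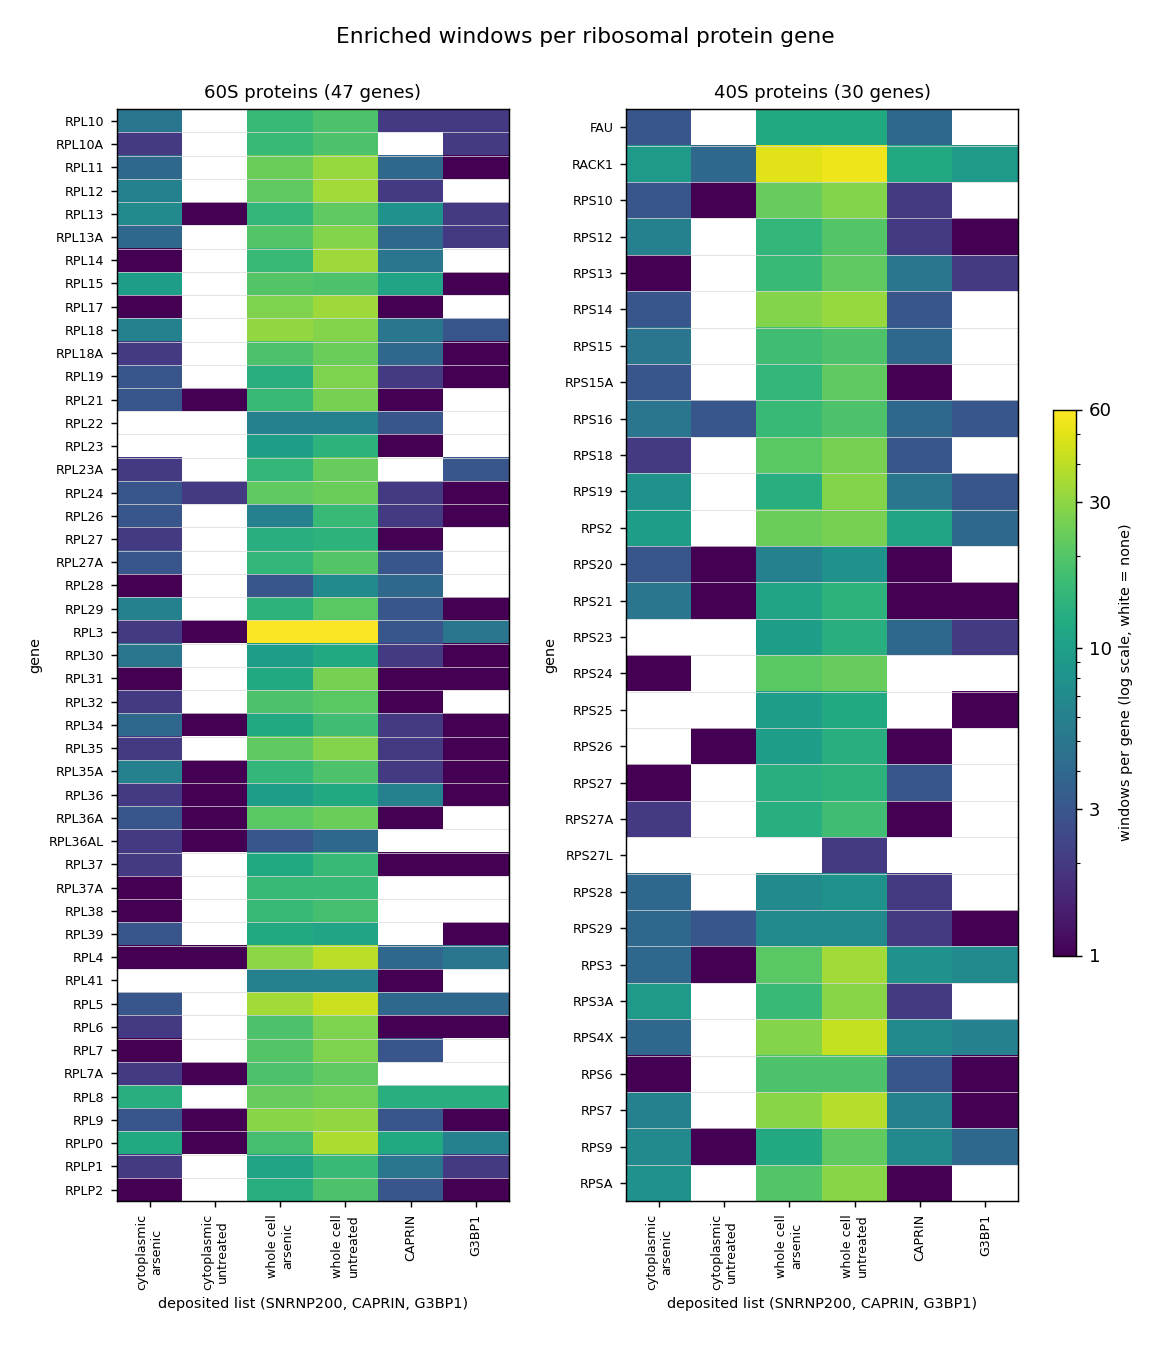
Number of enriched windows for 77 of the 81 genes (rows, 60S left and 40S right) in each deposited list (columns), on a log colour scale with white for no window. Of the genes drawn, 70 have windows in the cytoplasmic arsenic column and 22 in the cytoplasmic untreated column.

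Members had more reads behind their windows than other genes. The median input of a member window was 38.5 reads in the cytoplasm with arsenic, where other windows had 13, and 24 without arsenic, where others had 3. In whole cells it was 7 with arsenic and 9 without, where other windows had 3 each. For CAPRIN it was 6 against 2, and for G3BP1 20 against 5. IP reads per base of listed window were 1.75 in members and 0.560 in other genes in the cytoplasm with arsenic, 0.883 and 0.455 for CAPRIN, and 0.805 and 0.711 for G3BP1. The part of transcript abundance in the counts of listed members was not tested.

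Other TOP mRNAs had shares near or above those of the members in the cytoplasmic, CAPRIN and G3BP1 lists, and genes of oxidative phosphorylation and of mitochondrial ribosomal proteins had lower shares. In the cytoplasm with arsenic the lists held 13 of 15 other TOP mRNAs, 54 of 90 oxidative phosphorylation genes and 24 of 82 mitochondrial ribosomal protein genes. Without arsenic they held 8, 7 and 8 of these. CAPRIN listed 15 of 15, 62 of 90 and 47 of 82, and G3BP1 listed 11 of 15, 21 of 90 and 4 of 82. No test was made between these groups.

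**Figure D2:**
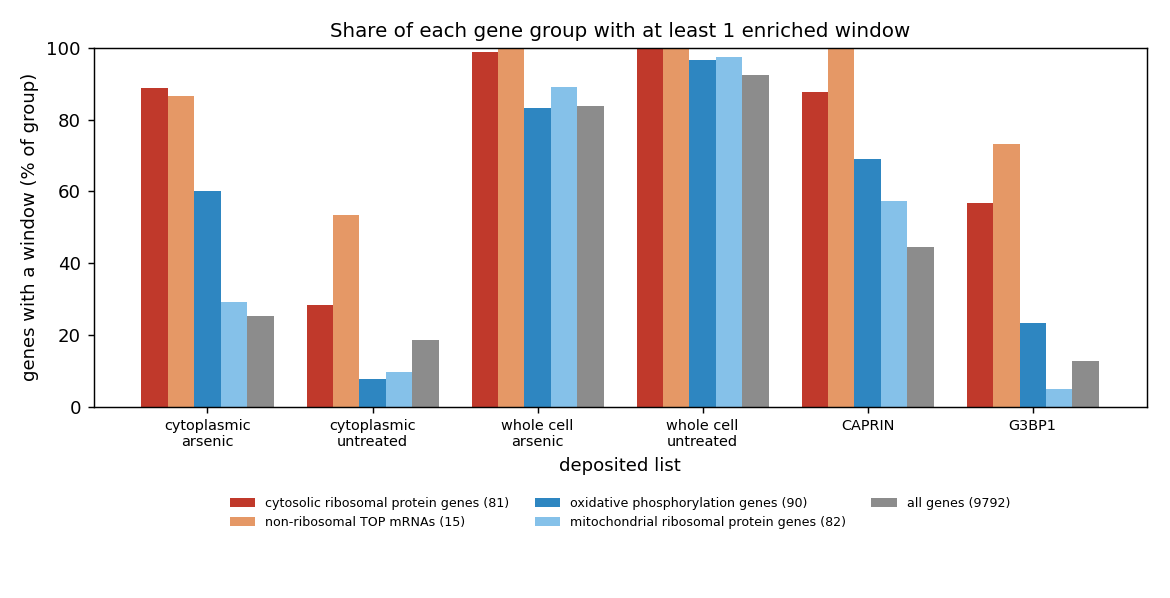
Percent of the genes of each group (bars, group size in brackets) with at least 1 enriched window in each deposited list. Ribosomal protein genes stand at 88.9% in the cytoplasm with arsenic and 28.4% without, and all genes at 25.2% and 18.6%.

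Genes of both subunits were found in every list. With arsenic in the cytoplasm 44 of 47 genes of the 60S subunit and 28 of 34 of the 40S subunit were listed, and without it 13 and 10. CAPRIN listed 40 and 31, and G3BP1 listed 30 and 16. Of the hosts of an intronic snoRNA 26 of 29 were listed in the cytoplasm with arsenic, and 46 of the 52 other members. For G3BP1 these counts were 17 of 29 and 29 of 52. Pseudogenes of ribosomal proteins appeared as 22 listed symbols, 5 of them in the cytoplasm with arsenic. The sources used here do not say how reads matching several near-identical copies were assigned, so reads of members with such copies are uncertain.

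The members found in all 6 lists were RACK1, RPL3, RPL4, RPL9, RPL13, RPL24, RPL34, RPL35A, RPL36, RPLP0, RPS3, RPS9, RPS16, RPS21 and RPS29. These 15 are 18.5% of the members, and 4.33% of all genes were in all 6 lists. Another 31 members were in 5 lists, 25 in 4, 9 in 3 and 1 in a single list. That one was RPS27L, a close relative of RPS27, with 2 windows in untreated whole cells.

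The genes with most windows differed between whole cells and the other maps. RPL3, whose protein reaches towards the peptidyl transferase centre, had 59 windows in whole cells both with and without arsenic, and RACK1, the signalling scaffold on the small subunit, had 50 and 54. RPL5, which carries 5S rRNA to the ribosome, had 34 and 43, and RPL4 had 30 and 39. RPL18 had 31 windows with arsenic, and RPS4X had 42 without. In the cytoplasm with arsenic RPL8 had 13 windows, RPLP0, the base of the stalk that recruits elongation factors, 12, RPL15 and RPS2 10 each and RACK1 and RPS3A 9 each. Without arsenic RACK1 had 4, RPS16 and RPS29 3 each and RPL24 2. RPL8 again led with 13 windows for CAPRIN, ahead of RACK1 and RPLP0 with 12 each and RPL15 and RPS2 with 11 each. For G3BP1 the counts were 13 for RPL8, 9 for RACK1, 7 for RPS3 and 6 each for RPLP0 and RPS4X.

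The highest enrichment in whole cells lay in introns and in exons annotated as neither coding sequence nor UTR. With arsenic high members were RPS18 (log2 6.24 and 7.75 in the replicates) and RPL7A (5.86 and 8.0), the last in an intron at a 5′ splice site. Without arsenic they were RPL7 (7.41 and 7.73), RPL34 (5.42 and 8.30) and RPS7 (4.93 and 8.72), each in an intron next to a splice site. The replicates of RPL7 lay close together and those of RPS7 far apart.

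In the other maps the highest windows lay in exons. In the cytoplasm with arsenic the highest were RPL13 (6.30 and 7.40) and RPSA (5.31 and 7.72), each in a window of 4 bases with 1 input read, and RPS27A (5.33 and 6.68), an S27a protein made as a fusion to ubiquitin. Without arsenic they were RPL36AL (2.96 and 3.95), RPL21 (2.75 and 2.76) and RPS21 (2.63 and 2.81). For CAPRIN RPS4X led with 7.01 and 7.79 in the 3′ UTR, then RPS27 with 6.96 and 7.13 and RPL14 with 6.31 and 7.01. By its lowest and highest replicate G3BP1 was highest in RPS21 (6.77 and 8.48), RPL30 (5.75 and 7.73) and RPS23 (4.76 and 6.81). The 3 CAPRIN windows had 73, 59 and 43 IP reads and 0 input reads, so they have no ratio of reads.

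Windows of members lay at other places in the transcript than those of other genes. In whole cells 37.2% of member windows with arsenic (515 of 1383) and 33.9% without (609 of 1796) were mRNA exons annotated as neither coding sequence nor UTR, where other genes had 4.30% and 3.96%. Each of these member windows had a retained-intron transcript among its annotated types. The same count was not made for other genes, so it is not known to be particular to members. Introns at a splice site, where the spliceosome works, held 20.4% and 15.7% of member windows, against 41.2% and 35.9% of other windows. Coding sequence held 6.36% and 10.7% in members, against 36.0% and 39% in other genes.

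In the cytoplasm and for the stress granule proteins, 3′ UTRs held a smaller share of windows in members than in other genes. In the cytoplasm with arsenic 2.54% of member windows were in 3′ UTRs (7 of 276, exact 95% interval 1.03 to 5.16%), against 47.4% of other windows. Without arsenic it was 1 of 31 windows (3.23%, interval 0.0816 to 16.7%), against 68.0%. CAPRIN had 8.66% against 35.2%, and G3BP1 0 of 118 against 22.5%, where 0 allows up to 3.08%. Coding sequence held 49.3% of member windows in the cytoplasm with arsenic, 51.6% without, 41.7% for CAPRIN and 57.6% for G3BP1. Intervals are Clopper-Pearson, cover counting error only and treat neighbouring windows as independent. The lengths of the UTRs were not used here, so shares are not per base of UTR.

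**Figure D3:**
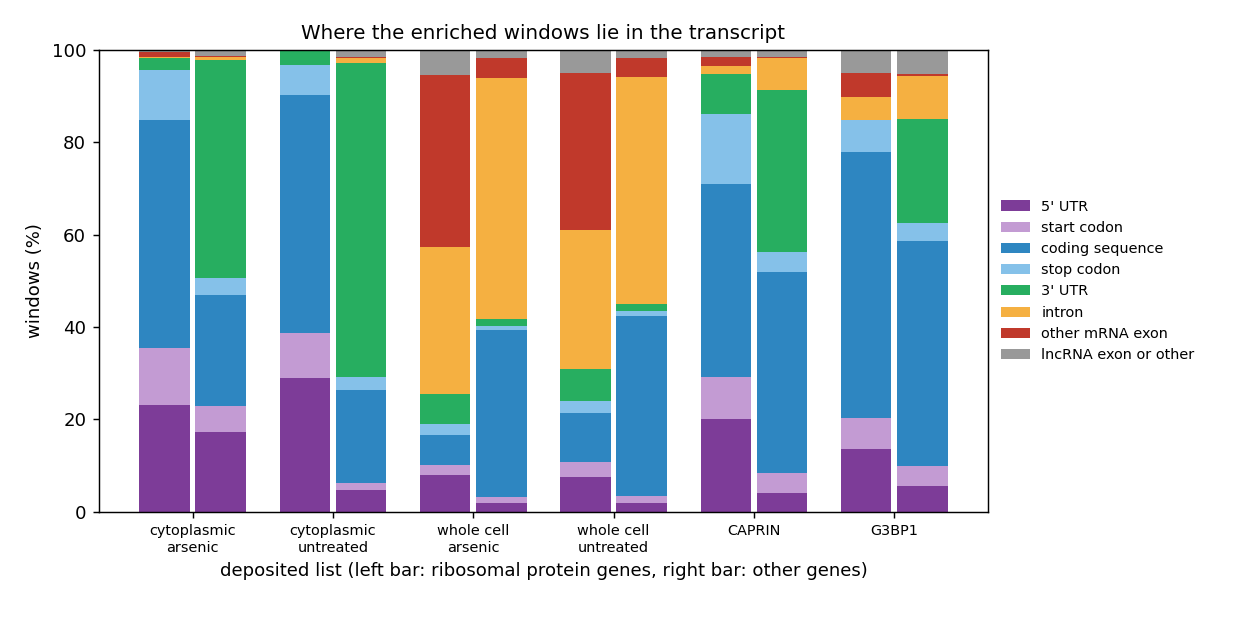
Percent of enriched windows by annotated feature in each deposited list, ribosomal protein genes left and all other genes right in each pair. The green 3′ UTR part is 2.54% of member windows and 47.4% of other windows in the cytoplasm with arsenic, and the red part, other mRNA exons, is 37.2% of member windows in whole cells with arsenic.

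The 5′ UTR held a larger share of windows in members than in other genes in each list. It was 23.2% in the cytoplasm with arsenic (64 of 276, interval 18.3 to 28.6%) and 29% without (9 of 31, interval 14.2 to 48.0%), where other genes had 17.2% and 4.77%. CAPRIN had 20.1% against 4.08%, G3BP1 13.6% against 5.54%, and whole cells 7.95% and 7.57% with and without arsenic, against 1.81% each. The 64 windows in the cytoplasm with arsenic came from 52 members, and the 51 CAPRIN windows from 45.

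Among members with a RefSeq start, most 5′ UTR windows outside whole cells lay at the gene start, where the tracts printed above stand. Windows of genes without a matched start were left out, so the totals are smaller than those above. Within 10 bases of a RefSeq start lay 35 of 51 member windows in the cytoplasm with arsenic (68.6%), 6 of 7 without (85.7%), 33 of 40 for CAPRIN (82.5%) and 8 of 9 for G3BP1 (88.9%). Other genes stood at 38.7%, 20.5%, 38.1% and 36.1%. In whole cells it was 10 of 97 (10.3%) with arsenic and 10 of 117 (8.55%) without, against 13.2% and 16.3% in other genes. The median length of these windows was 62 bases in members and 85 in other genes in the cytoplasm with arsenic, 65 and 92 without, 68.5 and 82 for CAPRIN and 58 and 85 for G3BP1. In whole cells it was 89 and 83 bases with arsenic and 86 and 83 without. A short 5′ UTR leaves a window little room away from the start, and the part of UTR length was not tested.

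**Figure D4:**
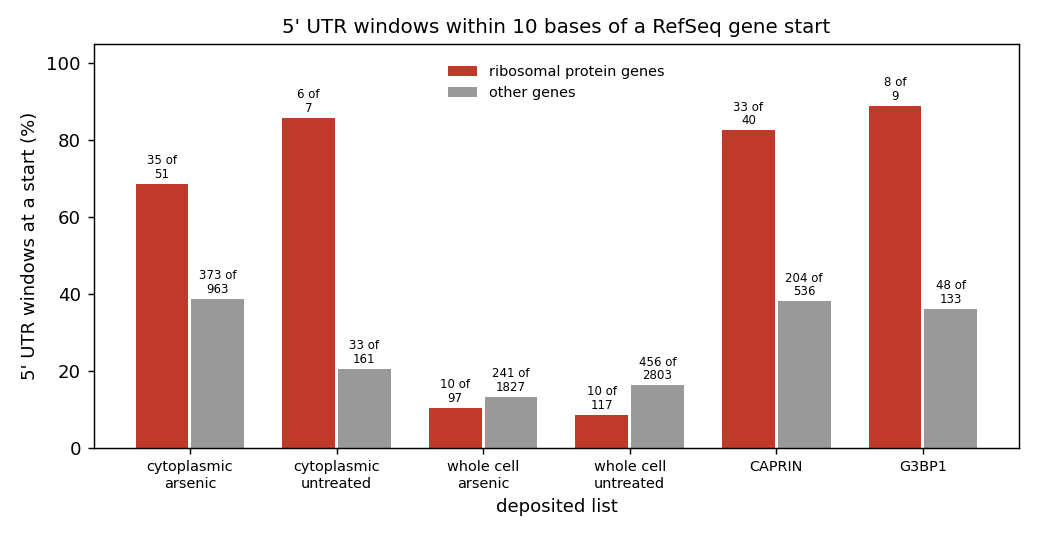
Percent of 5′ UTR windows within 10 bases of a RefSeq gene start in each deposited list, ribosomal protein genes left and other genes right, with the counts above the bars. Genes without a matched start are left out. Members stand between 68.6% and 88.9% in the cytoplasmic, CAPRIN and G3BP1 lists and at 10.3% and 8.55% in whole cells.

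With arsenic in the cytoplasm many more ribosomal protein genes had SNRNP200 windows than without, and where a window was in both lists its listed enrichment was higher with arsenic. Of 73 members listed in either, 50 were listed with arsenic only, 1 untreated only and 22 in both. Over all genes listed in either, 42.9% were with arsenic only and 22.3% untreated only. With lists of equal length the members were 44 with arsenic only and 1 untreated only, where all genes were 950 and 924. The one listed untreated only was RPS26, at the mRNA exit of the small subunit, with a coding window at log2 1.71 and 2.91. Those with arsenic only that had most windows were RPL8, RPL15, RPS2, RPS3A, RPS19 and RPSA, with 8 to 13 each. Of the 276 member windows with arsenic 7.97% were also listed untreated, and of the 31 untreated ones 71.0% were also listed with arsenic, where all genes shared 15.7% and 25.5%.

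Each of the 16 members compared in a shared window had both arsenic values above both untreated values, where 71.3% of 686 genes did so and 1.02% had both below. RPS29, of the head of the small subunit, had log2 4.39 and 6.06 with arsenic and 1.66 and 2.01 untreated in its 5′ UTR, a difference of 3.39 ± 1.16 (SE). RPS10 had 5.49 and 5.81 with arsenic and 2.42 and 2.53 untreated. RACK1 had 4.17 and 5.79 with arsenic and 1.5 and 2.17 untreated, in a 5′ UTR window that covers the tract printed above. At the low end were RPL35A (2.58 and 3.16 with arsenic, 1.37 and 1.88 untreated), RPS21 (3.85 and 4.54, untreated 2.63 and 2.81), RPL4 (3.06 and 5.23, untreated 2.64 and 2.65) and RPL7A (3.18 and 3.47, untreated 1.46 and 1.91). The groups did not overlap in any of these 7.

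The median difference of the 16 members was 2.53 and that of all 686 genes 2.02. None passed limma's moderated test with Benjamini-Hochberg adjustment (0% of 686 genes called, 206 at an unadjusted p under 0.05, 10 of them members, smallest member adjusted p = 0.134). An exact permutation test of 2 values against 2 cannot go below 0.333. With a trend of the variance on mean enrichment limma called 115 genes, 10 of them members, and without the lower arsenic value of each gene 403, 13 of them members. After the median difference of all windows was removed, the median of the members was 0.50 and 0 genes were called. The raw reads did not follow the listed enrichment: the ratio of IP to input reads was higher with arsenic in 5 of the 16 and lower in 11. Among 667 genes with input reads in both lists, 98 had a higher ratio with arsenic and 569 a lower one. RPS29 had 237 IP on 69 input reads with arsenic and 177 on 62 untreated, and RPL35A 56 on 57 with arsenic and 56 on 16 untreated. The listed differences stand beside baselines of 8.17 with arsenic and 1.06 untreated, and beside the input counts held in common with whole cells.

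**Figure D5:**
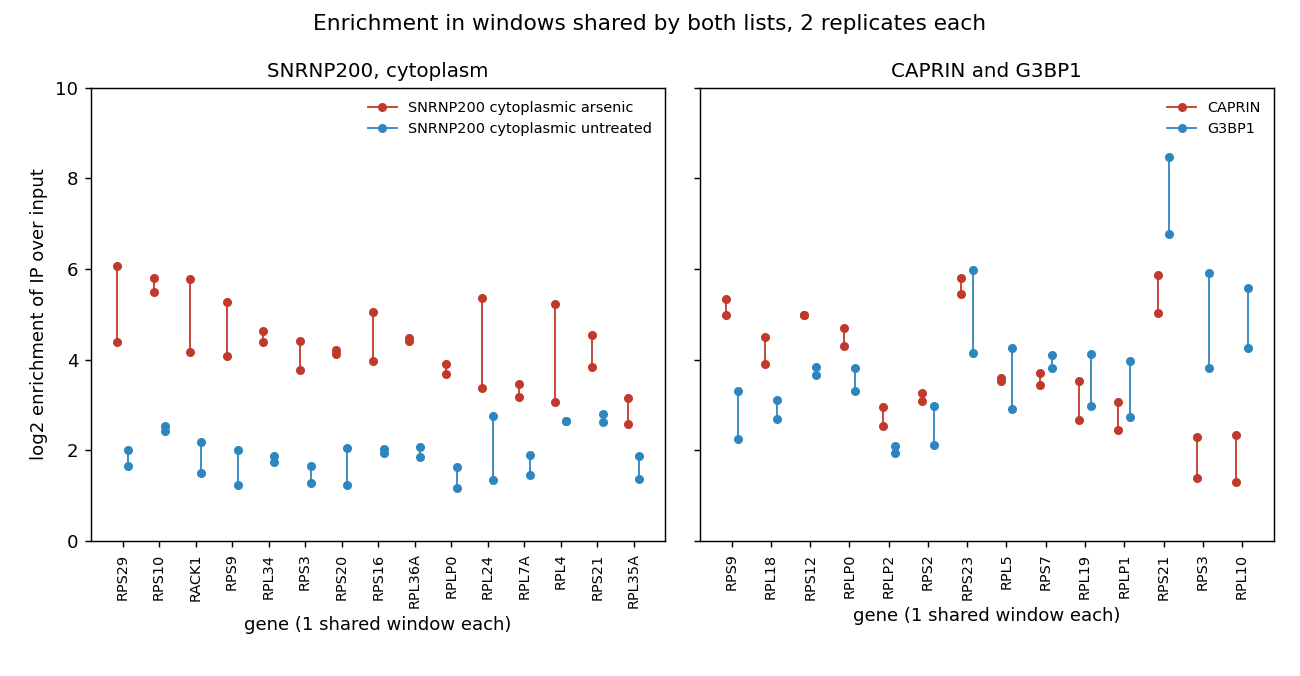
Log2 enrichment of IP over input in 1 window per gene that both lists hold, with a point for each of 2 replicates and a line between them. Left, SNRNP200 in the cytoplasm with arsenic and untreated, where the 15 genes drawn do not overlap. Right, CAPRIN and G3BP1, where 6 genes are higher for CAPRIN, 4 lower and 4 overlap.

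In whole cells most member windows were listed both with arsenic and untreated, and no member passed the test. All but RPS27L of the 81 members were in both lists, 0 with arsenic only (all genes 2.45%) and 1 untreated only (all genes 11.6%). Windows shared by both lists were 1258, 91.0% of the 1383 with arsenic and 70.0% of the 1796 untreated, where all genes shared 77.4% and 50.1%. Both arsenic values lay above both untreated ones in 12 of 80 members and below them in 13, against 16.9% and 15.1% of 7531 genes, and 55 overlapped.

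Among the largest differences were those of RPL31 (log2 6.11 and 6.97 with arsenic, 4.23 and 4.31 untreated, at a 5′ splice site), RPS3A (4.85 and 6.80, untreated 3.81 and 5.03) and RPL3 (4.58 and 7.55, untreated 4.50 and 4.87). The replicates of RPL31 did not overlap between treatments, and those of RPS3A and RPL3 did. The lowest were RPL22 (2.91 and 4.17 with arsenic, 5.03 and 6.27 untreated), RPL36AL (1.96 and 3.80, untreated 3.72 and 5.60), RPL17 (3.38 and 3.89, untreated 4.89 and 5.04) and RPS24 (1.44 and 2.02, untreated 2.84 and 3.12), of which only RPL36AL overlapped. RPL22 rested on 29 IP and 4 input reads with arsenic and 53 and 2 untreated. RPL31 had 139 IP on 1 input read with arsenic and 151 on 9 untreated. For RPS3A the reads were 184 on 2 with arsenic and 293 on 9 untreated. The median difference was 0.10 in members and 0.09 in all genes, and limma called 0% of 7531 (288 at an unadjusted p under 0.05, 2 of them members, smallest member adjusted p = 0.990).

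The arsenic effect in the cytoplasm minus that in whole cells was tested in the 7 members with a window shared by the 4 SNRNP200 lists. It was above 0 in each, as in 98.6% of all 70 genes, from 1.64 in RPL35A to 2.98 in RPL34, with a median of 2.53 where all 70 genes had 2.52. Limma called 0% of the 70 (22 at an unadjusted p under 0.05, 1 of them a member, smallest member adjusted p = 0.147).

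Without arsenic, most ribosomal protein genes, like most of all genes, were found in whole cells only and not in the cytoplasm. The whole cell list held 182066 windows and the cytoplasmic list 4182. Shared windows of members were mostly lower in the cytoplasm without passing the test. No member had a window in the cytoplasm only (all genes 1.17%), 58 had one in whole cells only (all genes 80.2%) and 23 had one in both. Those in whole cells only included RPL5, RPS4X, RPS7 and RPL12, with 34 to 43 whole cell windows each. In 18 members with a shared window the median difference was -1.04, where 405 genes had 0.12. Both cytoplasmic values lay below both whole cell values in 12 members and above them in 0, against 23.5% and 26.7% of all genes, and 6 overlapped.

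RPL3 was lowest, with log2 1.56 and 2.08 in the cytoplasm and 3.20 and 4.59 in whole cells. RPL7A had 1.46 and 1.91 in the cytoplasm and 3.13 and 4.28 in whole cells, RPLP0 1.16 and 1.62 against 2.92 and 2.97, and RPS16 1.14 and 1.69 against 2.26 and 3.44. These 4 did not overlap. At the high end RPS21 had 2.63 and 2.81 in the cytoplasm and 2.7 and 2.78 in whole cells. RPS21, RPL21 and RPL9 overlapped and differed by -0.03, -0.08 and -0.37. Limma called 0% of 405 (66 at an unadjusted p under 0.05, 3 of them members, smallest member adjusted p = 0.258). With at least 20 IP and 10 input reads in both lists it called 18 of 99 genes, 4 of them among 14 members. The ratio of IP to input reads was lower in the cytoplasm in 12 of the 18 members and in 109 of 367 genes with input reads.

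With arsenic, 72 ribosomal protein genes were listed in both the cytoplasm and whole cells, a count that was 37 at q under 0.05, with 42 then in whole cells only. All genes in both lists were 2244, and at q under 0.05 they were 514, with 4889 in whole cells only. At the deposited threshold 8 were in whole cells only (all genes 70.7%) and 0 in the cytoplasm only (all genes 2.7%). Those in whole cells only included RPL22, RPL23, RPL41, RPS23, RPS25 and RPS26. Both cytoplasmic values lay above both whole cell values in 29 of 47 members, below them in 1 and overlapped in 17, against 58.9% above and 2.2% below among 545 genes. The median difference was 1.30 in members and 1.31 in all genes.

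The largest were in RPS15 (log2 4.18 and 5.85 in the cytoplasm, 1.84 and 2.72 in whole cells), RPS6, the substrate of S6 kinase (4.17 and 4.55, whole cells 1.55 and 1.70), RPS3A (3.58 and 4.74, whole cells 1.46 and 1.87) and RPS27A (5.33 and 6.68, whole cells 1.83 and 5.25). The lowest were RPL13A (3.53 and 5.25 in the cytoplasm, 4.79 and 7.71 in whole cells), RPL8 (3.01 and 3.07, whole cells 3.77 and 3.82), RPL23A (2.90 and 4.26, whole cells 3.63 and 4.8) and RACK1 (2.68 and 4.86, whole cells 3.63 and 4.59). Of these 8 genes RPS15, RPS6, RPS3A, RPS27A and RPL8 did not overlap. The windows of RPS15 (chr19:1438885-1438892) and RPS6 (chr9:19380190-19380195) were very short. RPS15 had 58 IP on 37 input reads in the cytoplasm and 90 on 37 in whole cells. RPS6 had 30 on 31 and 42 on 31. Limma called 0% of 545 (97 at an unadjusted p under 0.05, 8 of them members, smallest member adjusted p = 0.253). With nearly the same input counts in both lists, the IP to input ratio was lower in the cytoplasm in 47 of 47 members. Over all genes it was lower in 485 of 545. Without the lower cytoplasmic value of each gene the median difference of the members was 1.82. The baselines of the lists were 8.17 in the cytoplasm and 1.57 in whole cells.

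CAPRIN and G3BP1 shared 42 ribosomal protein genes, and 4 of the 14 compared in a shared window differed by the test, 1 higher and 3 lower for CAPRIN. The test called 29.8% of all 379 genes compared, a share close to that of the members. Listed by CAPRIN only were 29 members (73.5% of all genes in either list) and by G3BP1 only 4 (6.03% of all genes). The 4 were RPL23A with 3 windows, RPL10A with 2, and RPL39 and RPS25 with 1 each. Those by CAPRIN only with most windows included RPL14 with 5, FAU, RPL28 and RPS15 with 4 each, and RPL22 with 3. With lists of equal length the members were 13 for CAPRIN only and 16 for G3BP1 only, where all genes were 783 and 638. Of the 254 CAPRIN windows 29.5% were also listed for G3BP1, and of the 118 G3BP1 windows 63.6% for CAPRIN, where all genes shared 10.7% and 55.8%.

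RPS9, near the mRNA entry of the small subunit, was higher for CAPRIN, with log2 4.98 and 5.33 against 2.26 and 3.30 for G3BP1 (difference 2.38 ± 0.58 SE, limma adjusted p = 0.0209). RPL10, the last protein to join the large subunit, was lower for CAPRIN in a window near a 5′ splice site. It had 1.30 and 2.34 for CAPRIN against 4.25 and 5.58 for G3BP1 (difference -3.09 ± 0.66, limma adjusted p = 0.0131). That window, chrX:154390373-154390472, lies upstream of the RPL10 starts found with a tract, whose stretches begin at chrX:154398055 and chrX:154398367. RPS3, also at the mRNA entry, was lower in a window annotated to a small RNA and named for both RPS3 and SNORD15B. It had 1.39 and 2.30 for CAPRIN against 3.82 and 5.92 for G3BP1 (difference -3.03 ± 0.76, limma adjusted p = 0.0219). Neither of the RPL10 and RPS3 windows was annotated as coding sequence or UTR. RPS21 was lower in coding sequence, with 5.04 and 5.87 for CAPRIN against 6.77 and 8.48 for G3BP1 (difference -2.17 ± 0.69, limma adjusted p = 0.0466). Its reads were 76 IP on 4 input reads for CAPRIN and 247 on 4 for G3BP1. RPL10 had 49 IP on 15 input reads for CAPRIN and 25 on 0 for G3BP1, so its difference has no ratio of reads behind it. RPS3 had 32 on 26 for CAPRIN and 36 on 4 for G3BP1, and RPS9 211 on 6 for CAPRIN and 33 on 8 for G3BP1. With at least 20 IP and 10 input reads in both lists 3 members could be tested and 0 were called, where 24 of 68 genes were.

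The next values did not pass the test. RPL18 had 3.91 and 4.49 for CAPRIN and 2.7 and 3.10 for G3BP1, RPS12 4.98 and 4.98 for CAPRIN and 3.67 and 3.83 for G3BP1, and RPLP0 4.30 and 4.71 for CAPRIN and 3.30 and 3.81 for G3BP1. RPLP1, whose start is printed above, had 2.45 and 3.06 for CAPRIN and 2.73 and 3.96 for G3BP1. Both CAPRIN values lay above both G3BP1 values in 6 of 14 members and below them in 4, against 25.1% and 43.5% of 379 genes. Of the calls over all genes 41 were higher and 72 lower for CAPRIN, and the median difference was 0.27 in members and -0.48 in all genes. After the median difference of all windows was removed, 57 genes were called higher and 39 lower, 5 of them members, and the median of the members was 0.75. Without the lower CAPRIN value of each gene it called 28 genes, 0 of them members, and without the higher one 34, 2 of them members. Without the lower G3BP1 value the median of the members turned to -0.45.

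SNRNP200 in the cytoplasm with arsenic was last set against CAPRIN, another protein mapped without arsenic. The 2 lists shared 132 member windows, 47.8% of the 276 for SNRNP200 and 52.0% of the 254 for CAPRIN, where all genes shared 35.4% and 15.2%. Both SNRNP200 values lay above both CAPRIN values in 18 of 53 members and below them in 17, against 33.5% and 21.3% of 1079 genes. The largest differences were in RPS15 (log2 2.45 and 4.93 for SNRNP200, 1.09 and 1.67 for CAPRIN), RPS4X (3.35 and 4.85, CAPRIN 1.52 and 2.27), RPL36A (4.41 and 4.48, CAPRIN 2.32 and 2.49) and RPL12 (4.18 and 4.61, CAPRIN 2.10 and 2.71). The lowest were RPS27 (3.80 and 4.48 for SNRNP200, 6.96 and 7.13 for CAPRIN), RPS12 (3.07 and 3.13, CAPRIN 4.98 and 4.98), RPL11 (2.57 and 3.84, CAPRIN 4.87 and 5.18) and RPS13 (3.54 and 6.04, CAPRIN 6.56 and 6.56). None of these 8 overlapped. RPL12 and RPS12 were compared in 5′ UTR windows at the starts printed above and differed in opposite directions. Limma called 0% of 1079 (190 at an unadjusted p under 0.05, 8 of them members, smallest member adjusted p = 0.165), with median differences of 0.30 in members and 0.44 in all genes. Of 48 members with input reads in both lists, the IP to input ratio was higher for SNRNP200 in 3 and lower in 45. Over all 852 such genes it was higher in 125 and lower in 727. The baselines were 8.17 for SNRNP200 and 2.03 for CAPRIN. The median of the members was -0.13 after the median difference of all windows was removed. Without the lower or the higher SNRNP200 value of each gene it called 570 and 315 genes, 16 and 17 of them members.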

How the data were processed

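Input and IP libraries of 6 eCLIP experiments in HEK293 cells were used, 2 of each per experiment, grouped by the labels. The treatment field names arsenic for all samples, so the characteristics, which give none for the untreated ones, were used. Reads were handled by the authors with fastp 0.11.5, STAR 2.7.6 and hg38, per the submitters' processing notes. The window caller is not given in the sources used. The 6 deposited lists have no column names and their columns were identified from the values. The deposited read counts are raw counts per window, with replicates added up by the authors. Deposited log2 values give IP over input, as the lowest, mean and highest replicate, normalised within GC classes by the authors. The p-values and q-values deposited are extremes over replicates, and no listed q exceeded 0.2. GC content was deposited as a fraction.

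Windows were matched between lists by coordinates and strand, and a window of several genes counted for each. Differences were tested with R 4.3.3 and limma 3.58.1, moderated and two-sided, without pairing or centring, at an adjusted p under 0.05 over all genes, on the lowest and highest deposited value of each list, in the shared window with most IP reads per gene. G3BP1 entries fall into 2 sets, and only the set with up to 2 replicates entered the tests. Starts came from RefSeq (GRCh38.p14), matched by symbol for 66 members.

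The members and gene lists were chosen with earlier results of these data known. Named were, per list, the 5 members with most windows and the 3 with the highest enrichment, and per comparison the 4 largest and 4 smallest differences and the members listed on one side, with the 58 found untreated in whole cells only given by count. Results of a few members are not reported here. Other values were chosen after they were seen. Alternatives were another window rule, stricter q, read minimums, equal list lengths, windows of 1 gene, centring, a variance trend and leaving out a value.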

Additional observations from a re-analysis of the deposited data

Results flagged for a closer look

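RPL35A and RPL7A had both cytoplasmic values higher with arsenic than untreated and both whole cell values lower, in the same window. RPL35A, in its 5′ UTR, had log2 2.58 and 3.16 with arsenic and 1.37 and 1.88 untreated in the cytoplasm, and 1.87 and 1.92 with arsenic and 2.17 and 2.39 untreated in whole cells, and the difference of the 2 effects was 1.64. RPL7A, in coding sequence, had 3.18 and 3.47 with arsenic and 1.46 and 1.91 untreated in the cytoplasm, and 2.14 and 2.71 with arsenic and 3.13 and 4.28 untreated in whole cells, and the difference was 2.91. By the ratio of IP to input reads both genes were lower with arsenic in the cytoplasm too, with 0.982 against 3.5 untreated in RPL35A and 1.35 against 3.65 untreated in RPL7A. In the whole cell window of RPL7A with most IP reads, the values were 4.73 and 5.2 with arsenic and 4.54 and 5.04 untreated and overlapped. Neither difference passed limma's test (adjusted p = 0.343 and 0.147, over 70 genes), and over those genes the median difference of effects was 2.52.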

How the results depend on the processing

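No paired analysis was possible because the deposited values carry no replicate number. Leaving out 1 of the 2 deposited values therefore drops the lower or the higher one in every gene. Under this the number of genes called by limma ran from 0 to 4 for arsenic in whole cells, 0 to 403 in the cytoplasm, 0 between fractions untreated, 0 to 121 with arsenic, 28 to 168 for CAPRIN against G3BP1 and 0 to 570 for SNRNP200 in the cytoplasm with arsenic against CAPRIN. The median member differences ran from -0.46 to 0.43, 2.33 to 2.89, -1.29 to -0.67, 0.69 to 1.84, -0.45 to 0.72 and -0.12 to 0.69 in the same order. With q under 0.05 in both lists the calls were 21 for arsenic in the cytoplasm, 1 between fractions with arsenic, 66 for CAPRIN against G3BP1 and 27 for SNRNP200 against CAPRIN. Between fractions untreated this filter left 1 of the 18 members, with a difference of -0.025, so it says little about the members' median. With the read minimums they were 40 for arsenic in the cytoplasm, 18 and 1 between fractions without and with arsenic, and 24 for CAPRIN against G3BP1. Means over shared windows gave 30 calls for arsenic in the cytoplasm and 2 for SNRNP200 against CAPRIN, and a variance trend 115 and 38. Removing the median difference moved the members' median to 0.50 for arsenic in the cytoplasm and to -0.0085 between fractions with arsenic. With q under 0.05, members listed were 38 and 3 in the cytoplasm with and without arsenic and 20 for G3BP1. With at least 2 windows they were 4 in the untreated cytoplasm and 22 for G3BP1, with the read minimums 44 for CAPRIN, and in the smaller G3BP1 set 21. The q, window and read filters shortened the lists of all genes too. Members on one side changed with at least 2 windows to 0 in the untreated cytoplasm only, 21 in whole cells only with arsenic and 2 for G3BP1 only. All genes were then 384, 5894 and 79 in the same order. With q under 0.05 members were 1 in the cytoplasm only and 42 in whole cells only with arsenic and 0 for G3BP1 only, where all genes were 223, 4889 and 230. With the read minimums 18 members were listed for CAPRIN only, and 640 of all genes. With lists of equal length members were 4 and 6 in the cytoplasm only without and with arsenic, 13 for CAPRIN only and 16 for G3BP1 only. All genes were then 1217, 1566, 783 and 638 in the same order. The members' 5′ UTR share with 1 window per gene was 50.0% in the cytoplasm with arsenic, 12.5% and 18.5% in whole cells with and without arsenic and 28.2% for CAPRIN. Weighted by IP reads it was 36.6% and 49.0% in the cytoplasm and 11.1% and 10.2% in whole cells, with and without arsenic. In whole cells it was 9.58% and 9.07% with the read minimums and, with arsenic, 5.76% with q under 0.05. Members held 9.01% and 1.93% of the IP reads of listed windows in the cytoplasm with and without arsenic, 2.97% and 3.07% in whole cells, 2.55% for CAPRIN and 3.67% for G3BP1. Their shares of windows were 4.08%, 0.741%, 1.18%, 0.986%, 1.60% and 3.90% in the same order. Another 141 alternative values stayed within 1.5 times, the replicate spread or the interval of the reported ones. Except where a list or set was made shorter, the cause of these moves was not tested. Depth is unknown, and a gene with no listed window was not shown to be unbound.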
